A study of Mus musculus with 3 samples.

Results

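Sprouty and Spred genes encode a family of 7 inhibitors of RAS and ERK signalling, 4 Sprouty genes (Spry1 to Spry4) and 3 Spred genes (Spred1 to Spred3), and their chromatin was described in mouse alveolar type II (AT2) cells, epithelial cells of the alveoli that make surfactant. The members were all 7 genes of the family, and the regions described were every peak with its summit in the GRCm38 body of a member or within 20 kb of it. These windows held 28 of the 31165 ETV5 peaks and 15 of the 15134 H3K4me3 peaks of the series, and the 7 genes were set beside 21780 protein-coding genes. The study immunoprecipitated chromatin of AT2 cells from C57BL/6 mice of 10 to 12 weeks, with no genotype or treatment other than strain given, for the transcription factor ETV5 in 1 library and for H3K4me3, trimethylation of histone H3 on lysine 4 that marks active promoters, in 1 library. A single input library of the same cells, made without an antibody, is listed beside them. The cells were isolated from mice, and the sources used here do not give how many animals went into a library. With 1 library per antibody no value below has a replicate check and no test between libraries was possible. Intervals are exact 95% Poisson intervals for fragment numbers and exact 95% Clopper-Pearson intervals for shares, and they cover counting error only.

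Sprouty proteins are made in response to growth factor signalling and act back on it between the receptor and ERK. They sit at the membrane through a cysteine-rich Sprouty domain and bind adaptors such as GRB2 and the ubiquitin ligase CBL. Spred proteins share that domain, carry an EVH1 domain at the other end, and bring neurofibromin, the RAS GTPase-activating protein encoded by Nf1, to the membrane. In the developing lung Sprouty genes restrain branching driven by FGF signalling. ETV5 belongs with ETV1 and ETV4 to the PEA3 group of ETS factors, whose genes are themselves targets of FGF and ERK signalling.

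The libraries differed in depth. After the caller's filtering the ETV5 library held 5715049 tags and the H3K4me3 library 34907608 tags, and each list was called against its own input. Pileup is the number of fragments that overlap at the summit of a peak. Fold enrichment is the authors' own value for each peak, the pileup plus 1 divided by the input's local background plus 1, and folds of both lists are not on a common scale. Defining markers of AT2 cells carried H3K4me3 within 1 kb of a gene boundary at 12 of 12 genes, and those of mesenchymal cells at 0 of 5, of airway secretory cells at 0 of 4, of endothelial cells at 1 of 6 (Esam) and of leukocytes at 1 of 6 (Spi1). Ciliated cell markers carried it at 4 of 5 genes and markers of alveolar type I cells at 5 of 7. The part of other cells in the values below was not tested.

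ETV5 peaks were called at 6 of the 7 genes, all but Spry3, and H3K4me3 peaks at all 7. Over all protein-coding genes 68.9% had an ETV5 summit in such a window and 66.1% an H3K4me3 summit, and of the genes with H3K4me3 there 96.2% also had ETV5. The count of members with ETV5 therefore lay near that of any genes with the mark. What differed among the members was the strength and the layout of the peaks. Spred1 and Spred2 had the highest ETV5 folds, 99.2 and 105, and only 0.546% of protein-coding genes had a fold of at least 99 in their window. Spry2 followed with 43.1 and Spry4 with 26.5. Spred3 with 16.2 and Spry1 with 15.5 lay close to the median of all genes with an ETV5 peak, 16.9. The median of the 6 members with a peak was 34.8. All 6 had a peak of fold 10 or more. Over all protein-coding genes, with or without an ETV5 peak, the share was 51.5%. Among the genes with H3K4me3 in the window, as these 6 have, it was 77.0%.

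**Figure D1:**
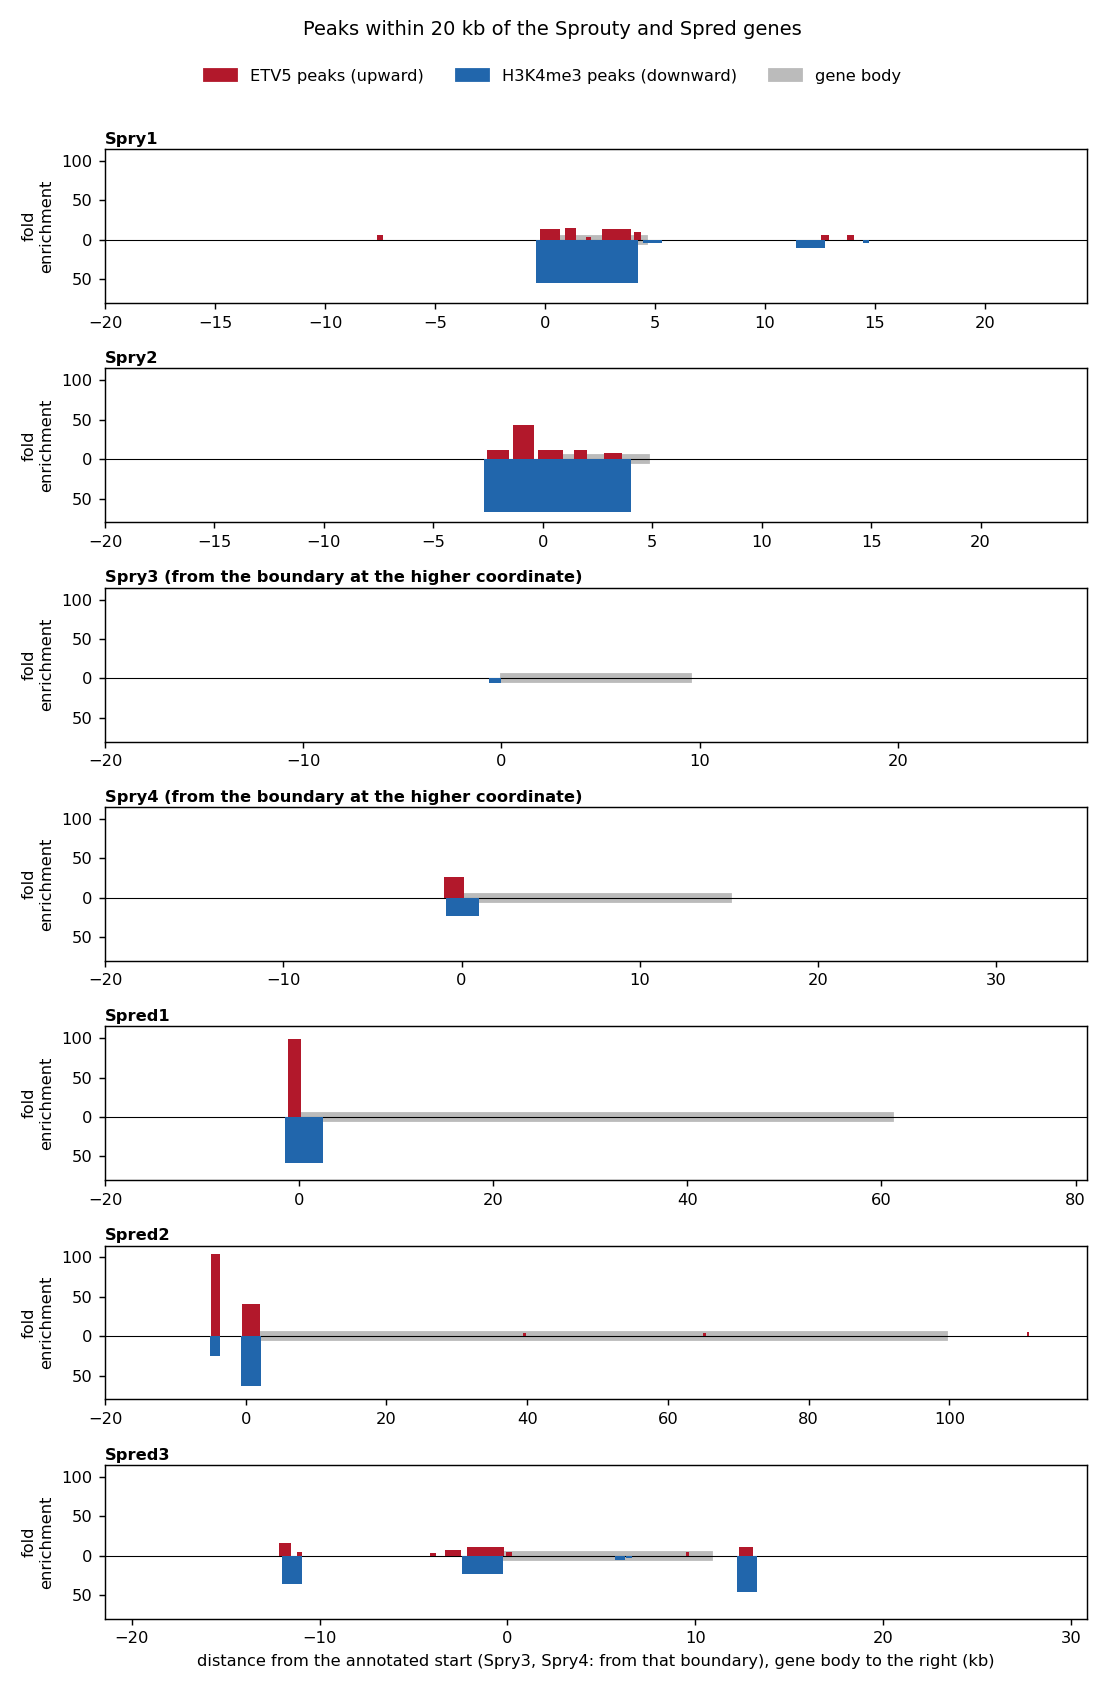
Peaks around each gene, with distance from the annotated start in kb on the horizontal axis (for Spry3 and Spry4 from the gene boundary at the higher coordinate) and the authors' fold enrichment on the vertical axis, ETV5 upward in red, H3K4me3 downward in blue, gene body in grey, and the narrowest peaks drawn wider than they are. Spred1 shows a single ETV5 peak of fold 99.2 at its start, Spred2 a peak of fold 105 upstream of a second one of 40.5, Spry1 and Spry2 rows of 5 peaks over a wide H3K4me3 peak, and Spry3 none.

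**Figure D2:**
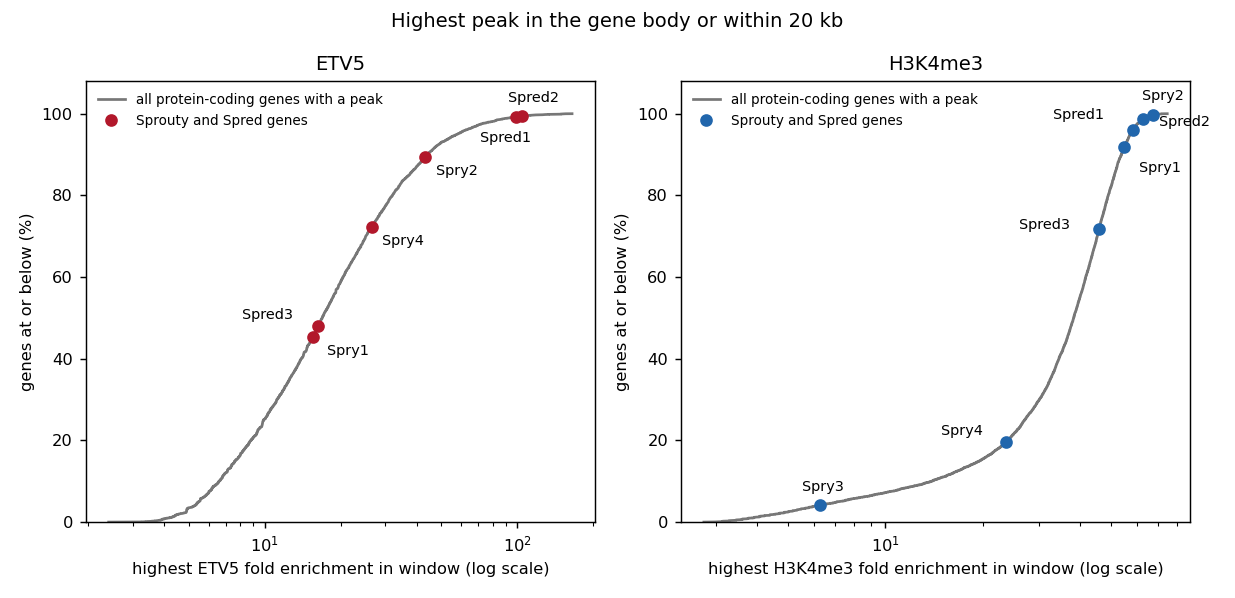
Percent of protein-coding genes at or below each value (vertical axis) of the highest fold enrichment in the gene body or within 20 kb (horizontal axis, log scale), for ETV5 and for H3K4me3, over genes with a peak, with the members as points. The ETV5 points run from 15.5 at Spry1 to 105 at Spred2, and the H3K4me3 points from 6.27 at Spry3 to 67.3 at Spry2.

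The members' order by H3K4me3 was another one. Spry2 had the highest H3K4me3 fold, 67.3, above that of 99.8% of protein-coding genes, followed by Spred2 with 62.7, Spred1 with 58.4, Spry1 with 55.01, Spred3 with 45.9, Spry4 with 23.7 and Spry3 with 6.27. The highest H3K4me3 peak of Spred3 lay in the neighbouring gene Fam98c. The peak reaching over its own upper end, with its summit in the overlapping gene Ggn, had fold 22.9. The median over the 7 members was 55.01, against 38.3 over all genes with an H3K4me3 peak. Spry1 ranked differently in both lists. Its H3K4me3 fold was higher than that of 94.7% of genes and its ETV5 fold higher than that of 62.3%. In these shares, and in that of Spry2, genes without a peak count as lower. Among genes with an ETV5 peak the median was 16.9, above the 15.5 of Spry1.

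Spred2 (chromosome 11, 19924442 to 20024026, plus strand) encodes a Spred protein made in many tissues, and it held the strongest ETV5 signal of the family. Its ETV5 peak of highest fold did not lie at the annotated start. It lay from 19919501 to 19920848, with its summit 4075 bp upstream of the start, a pileup of 300.0 fragments (interval 267 to 336) and fold 105, and its pileup was higher than that of 99.98% of ETV5 peaks. Another ETV5 peak covered the start itself (19923888 to 19926456), with its summit 71 bp downstream of it, a pileup of 90.0 (72.4 to 111) and fold 40.5. The intervals of these pileups do not overlap.

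H3K4me3 had the opposite order at the same places. The upstream H3K4me3 peak (19919430 to 19920840) had a pileup of 158 fragments (134 to 185) and fold 24.6, and the peak over the start (19923741 to 19926614) had 400.0 (362 to 441) and fold 62.7. Both H3K4me3 peaks were almost covered by ETV5, 94.97% of the upstream one and 89.4% of the one at the start. The ratio of ETV5 to H3K4me3 pileup was 1.90 upstream and 0.225 at the start. Among the 12744 H3K4me3 peaks of the series that held ETV5 the median ratio was 0.164 (quartiles 0.102 and 0.292), and 99.3% of them had a lower ratio than the upstream peak. The libraries differ in depth, so the ratio ranks peaks within this pair of libraries and has no meaning of its own. No annotated gene other than Spred2 lay nearer to either summit. The other ETV5 peaks of Spred2 were weak: 2 inside the gene had folds 4.45 and 4.01, and 1 beyond its far end, in the noncoding gene Gm39603, had fold 5.55. All of these had pileups of 8 or 9 fragments and lay outside H3K4me3.

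**Figure D3:**
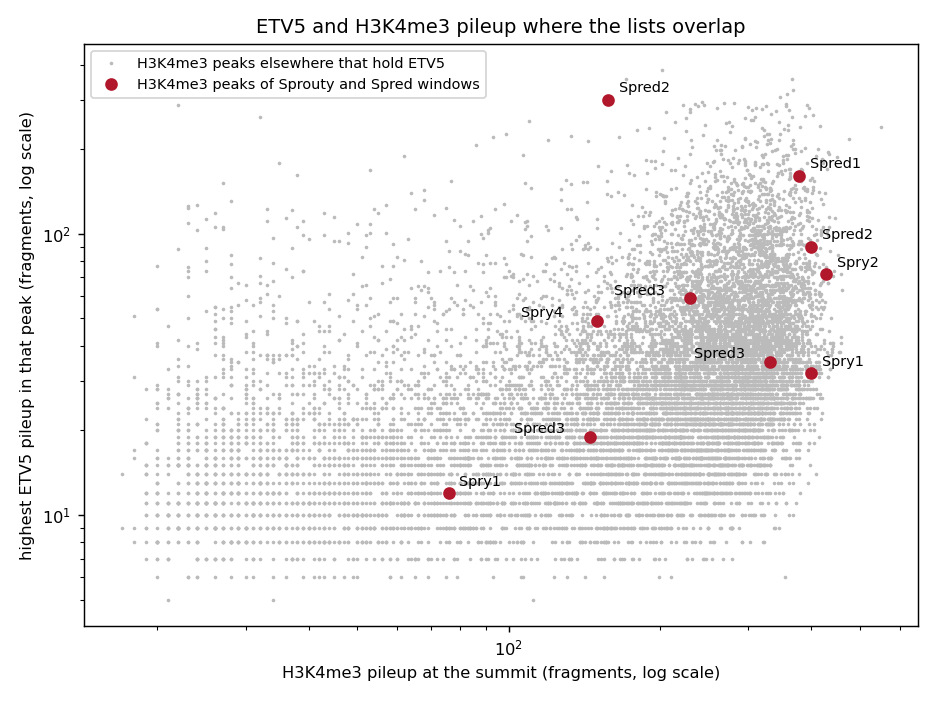
Highest ETV5 pileup (vertical axis, fragments, log scale) against the H3K4me3 pileup (horizontal axis, fragments, log scale) of every H3K4me3 peak that held ETV5, with those of the Sprouty and Spred windows in red. The upstream peak of Spred2, at 300.0 ETV5 and 158 H3K4me3 fragments, lies above the main cloud, and the main peak of Spry1, at 32 and 400.0, lies low in it.

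Spred1 (chromosome 2, 117121071 to 117182279, plus strand), whose human counterpart is mutated in Legius syndrome, had a single ETV5 peak in its window, and it sat at the start. The peak ran from 117119889 to 117121269, with its summit 182 bp upstream of the start, a pileup of 161 fragments (137 to 188) and fold 99.2. Its fold came close to that of the upstream Spred2 peak although its pileup was lower, since the local background under it was 0.633 fragments, against 1.87 under the Spred2 peak. A 3913-bp H3K4me3 peak (117119641 to 117123553, pileup 379, fold 58.4) enclosed all of it. The rest of the 61209-bp gene had no ETV5 or H3K4me3 peak.

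Of the promoter sequences, those of Spred1 and Spred2 are shown because they lie under ETV5 peaks in full, and those of Spry2 and Spry1 as examples that ETV5 peaks cover only in part. The window of Spred3, with 179 of its 300 bases in ETV5 peaks, is not printed. The sequences are RefSeq GRCm38.p6 windows from 250 bases before to 50 bases after the annotated start, read 5′ to 3′ in the direction of the gene. Capitals mark GGAA, the core that ETS factors bind, in either strand (GGAA or TTCC). Positions are chr2:117120821-117121120 (plus strand) for Spred1, chr11:19924192-19924491 (plus) for Spred2, chr14:105896770-105897069 (minus) for Spry2 and chr3:37639697-37639996 (plus) for Spry1.
Spred1: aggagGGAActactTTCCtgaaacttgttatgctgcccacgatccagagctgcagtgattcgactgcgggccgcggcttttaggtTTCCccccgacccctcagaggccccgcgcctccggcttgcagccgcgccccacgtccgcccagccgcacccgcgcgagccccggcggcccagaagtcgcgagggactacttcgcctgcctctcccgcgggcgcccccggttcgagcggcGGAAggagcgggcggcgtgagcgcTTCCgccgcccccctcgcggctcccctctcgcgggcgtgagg
Spred2: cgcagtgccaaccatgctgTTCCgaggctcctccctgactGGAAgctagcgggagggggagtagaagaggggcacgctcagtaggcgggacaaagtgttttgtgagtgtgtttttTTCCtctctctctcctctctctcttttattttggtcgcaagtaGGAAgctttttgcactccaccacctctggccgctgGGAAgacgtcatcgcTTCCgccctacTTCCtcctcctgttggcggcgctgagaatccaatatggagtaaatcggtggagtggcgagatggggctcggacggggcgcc
Spry2: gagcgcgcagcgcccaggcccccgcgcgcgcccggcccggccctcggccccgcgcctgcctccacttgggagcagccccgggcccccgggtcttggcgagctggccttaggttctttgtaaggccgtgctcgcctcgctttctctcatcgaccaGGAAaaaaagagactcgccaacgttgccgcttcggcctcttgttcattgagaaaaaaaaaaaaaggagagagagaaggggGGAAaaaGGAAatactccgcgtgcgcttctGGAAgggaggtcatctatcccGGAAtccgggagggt
Spry1: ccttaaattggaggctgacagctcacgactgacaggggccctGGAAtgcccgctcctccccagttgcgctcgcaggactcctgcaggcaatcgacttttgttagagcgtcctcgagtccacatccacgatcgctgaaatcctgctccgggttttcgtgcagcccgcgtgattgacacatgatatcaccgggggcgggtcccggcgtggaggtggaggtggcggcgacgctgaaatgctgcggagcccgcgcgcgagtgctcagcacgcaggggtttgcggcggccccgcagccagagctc

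The window of Spred1 holds the ETV5 summit. It has 5 GGAA cores, and 2 of them stand in the longer form CGGAAG, which begins 17 bp upstream of the start as printed and 7 bp downstream of it on the other strand. The window of Spred2 holds no ETV5 summit, and the sequence under its strongest peak was not examined. It has 7 GGAA cores, of which 1 stands in CGGAAG, 43 bp upstream of the start on the other strand. Spry2 has 5 cores, 1 of them in CCGGAA, 33 bp downstream of the start. Spry1 and Spred3 have 1 core each and neither longer form. None of the 5 windows holds CCGGAAGT or the AP-1 motif TGANTCA on either strand, and neither GGAA nor TGANTCA lies within the other. Over all 32851 promoter windows of the table, 96.0% hold GGAA, 14.9% CCGGAA, 16.9% CGGAAG, 3.89% CCGGAAGT and 7.81% TGANTCA. Of the 5541 windows that hold an ETV5 summit, 96.0% hold GGAA, as do 96.0% of the windows without a summit. The median number of GGAA cores was 3 over all windows and 4 over those with a summit. Of the windows with a summit 43.7% have CCGGAA, 47.2% CGGAAG, 15.2% CCGGAAGT and 3.93% TGANTCA. Without a summit the shares were 9.06%, 10.7%, 1.59% and 8.59% in that order. The shorter letters lie within the longer ones, so these shares overlap, and CGGAAG was searched after the sequences had been read. A match is a run of letters and not a mapped site.

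Spred3 (chromosome 7, 29157783 to 29170070, minus strand), known mainly from the brain, lay among close neighbours, and Spred3 was the nearest gene, alone or together with Ggn, to 3 of its 8 ETV5 peaks. The highest, with fold 16.2 and a pileup of 59 fragments (44.9 to 76.1), lay in the proteasome gene Psmd8, 11985 bp upstream of the annotated Spred3 start. Another of fold 11.0 lay in Fam98c. The highest peak in Spred3 itself (29168836 to 29170784) was 1949 bp wide, had a pileup of 19 (11.4 to 29.7) and fold 11.2, and lay in the stretch where Spred3 and Ggn, a gene active in the germ line, overlap. Its share in each of these genes cannot be told apart.

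The annotated start of Spred3 and the mark lay side by side. The promoter window of the table (29168598 to 29168897) contains 0 bases of H3K4me3, and an H3K4me3 peak of fold 22.9 began just past it (29168900 to 29171054), reaching over the upper end of the gene body. On the minus strand that end, at 29170070, is the upstream one. The annotated start, at 29168647, lies inside the gene body. The H3K4me3 peak covers the upstream end of Spred3, but its summit lay 291 bp beyond that end, inside Ggn. The share of each gene in this H3K4me3 peak cannot be told apart. An ETV5 peak with its summit 65 bp downstream of the annotated start had fold 4.46 and a pileup of 7 fragments (2.81 to 14.4). Inside the gene, 2 narrow H3K4me3 peaks of folds 3.45 and 5.33 held no ETV5.

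Spry2 (chromosome 14, 105891947 to 105896819, minus strand), the Sprouty gene best known for restraining FGF signals in the developing airway, had 83.1% of its gene body under 1 H3K4me3 peak (105892771 to 105899528). That peak was 6758 bp wide, wider than 99.9% of H3K4me3 peaks, with a pileup of 428 fragments (388 to 471) and fold 67.3. It held all 5 ETV5 peaks of the window, which covered 67.1% of it. The strongest ETV5 peak (105897216 to 105898175) had its summit 539 bp upstream of the start, with a pileup of 72 fragments (56.3 to 90.7) and fold 43.1. A further upstream peak had its summit 2154 bp from the start, with a pileup of 33 (22.7 to 46.3) and fold 11.8.

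The remaining 3 peaks lay inside the gene, 397, 1625 and 3359 bp downstream of the start. Their pileups were 20, 19 and 21 fragments, and their folds were 11.5, 10.9 and 8.26. They were alike in height, and the upstream peak of 72 fragments exceeded each of them beyond its counting interval. The summits were spaced 936 to 1734 bp apart. The promoter window printed above falls between the summits of the strongest peak and of the nearest peak inside the gene, and 255 of its 300 bases lie in that second peak, which reaches past the annotated start.

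Spry1 (chromosome 3, 37639947 to 37644599, plus strand), which restrains receptor signalling in several branching organs, had a similar layout with lower ETV5 values. A 4614-bp H3K4me3 peak (37639558 to 37644171) with a pileup of 400.0 fragments and fold 55.01 covered most of the gene and held 5 of the 8 ETV5 peaks of the window. In the order of the gene these had pileups of 30.0, 27, 6, 32 and 21 fragments and folds of 13.8, 15.5, 3.93, 13.6 and 9.79. The intervals of the highest 3, from 17.8 to 45.2 fragments together, overlap, so no peak stood out from the others as it did at Spry2. Each of the 5 summits lay inside the gene, the nearest 349 bp downstream of the start. The ETV5 to H3K4me3 pileup ratio of the main peak was 0.0800, and 14.0% of H3K4me3 peaks with ETV5 had a lower one.

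Outside the gene, Spry1 had 1 ETV5 peak 7517 bp upstream of the start (fold 6.55) and 2 peaks, of folds 6.20 and 5.58, in the noncoding gene Gm46799. An H3K4me3 peak of fold 10.9 lay at the edge of Gm46799 and overlapped 197 bp of the nearer one. Whether these peaks belong to Spry1 or to Gm46799 cannot be told from their position.

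**Figure D4:**
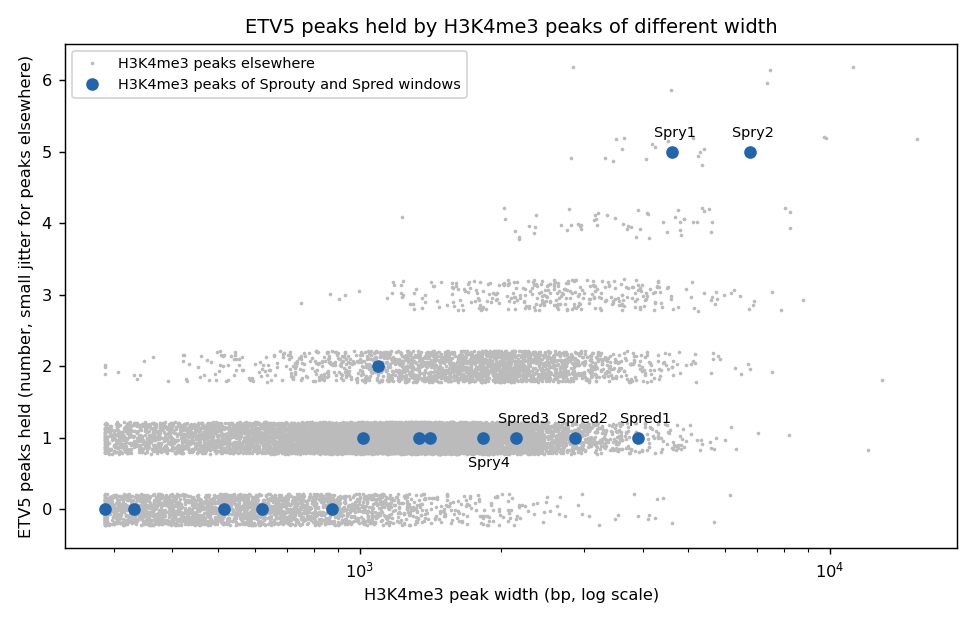
Number of ETV5 peaks held (vertical axis) against the width of the H3K4me3 peak (horizontal axis, bp, log scale) for all 15134 H3K4me3 peaks in grey and the 15 of the Sprouty and Spred windows in blue. The wide peaks of Spry1 and Spry2 hold 5 each, and those of Spred1 and Spred2, with widths of 3913 and 2874 bp, hold 1 each.

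An H3K4me3 peak with 5 or more ETV5 peaks was rare, at 0.165% of the list (25 peaks), and Spry1 and Spry2 account for 2 of these. Among H3K4me3 peaks of 4000 bp or more the share was 8.53% (18 of 211). The wide H3K4me3 peak at Spred1 is close to that width and held 1 ETV5 peak. Counts of peaks in a window also reflect neighbours: Spry1 and Spred3 had 8 ETV5 peaks each, and 7.74% of protein-coding genes had 8 or more. Spry2 and Spred2 had 5 each, and 19.4% of genes had 5 or more.

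Spry4 (chromosome 18, 38586247 to 38601347), a Sprouty gene induced by FGF signalling, had 1 ETV5 peak and 1 H3K4me3 peak, both at its boundary of higher coordinate. The ETV5 peak (38601202 to 38602345) had a pileup of 49 fragments (36.3 to 64.8) and fold 26.5. The H3K4me3 peak (38600366 to 38602195) had a pileup of 150 fragments (127 to 176) and fold 23.7. This was the lowest highest fold in the window of any member but Spry3. Spred3 ranked above it through peaks in neighbouring genes, and the peak reaching over its own upper end had fold 22.9. The next gene is Arhgap26. The ETV5 summit lay in the gap between both genes, 178 bp from Spry4 and 92 bp from Arhgap26. The H3K4me3 summit lay inside Spry4, 262 bp from its boundary of higher coordinate. Signals of both genes cannot be told apart here.

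Spry3, a Sprouty gene best known from neurons, needs a word on its place. The gene table lists it on chromosome X at 101352 to 110912, but the first peak on X in either list lies at 6.40 Mb. All 3 H3K4me3 peaks on GL456233.1, a scaffold assigned to X without a place on it, lay at boundaries of genes that the table lists with such low X positions. The summit was 227 bp from a boundary of Vamp7, 420 bp from one of Spry3 and 147 bp from one of Tmlhe. Spry3 was therefore read on that scaffold. Its H3K4me3 peak (110918 to 111536) was narrow, with a width of 619 bp, a pileup of 39 fragments (27.7 to 53.3) and fold 6.27, lower than that of any other member's highest peak. Neither Spry3 nor any other place on the scaffold had an ETV5 peak. Of the 1278 H3K4me3 peaks with a fold within 20% of this one, 57.7% (55.0 to 60.5) held ETV5, against 84.2% of all H3K4me3 peaks, so that a peak of this height without ETV5 is common. The lowest pileup called for ETV5 in the whole list was 5 fragments, and a weaker signal would not be listed at this depth.

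Across the windows, 19 of 28 ETV5 peaks (67.9%, interval 47.6 to 84.1) overlapped H3K4me3, against 48.9% (48.3 to 49.4) of all ETV5 peaks. The interval of the members' share holds the share of all peaks only at its lower edge, and peaks of 1 gene are not independent of each other. The members' windows all hold H3K4me3, whereas the whole list is not limited to such windows. The share among peaks in windows of other genes with H3K4me3 was not computed. The Sprouty genes had 12 of their 14 ETV5 peaks in H3K4me3 and the Spred genes 7 of 14. All 14 ETV5 peaks of fold 10 or more lay in H3K4me3, as did 87.5% of the 9571 such peaks in the whole list. The 9 peaks outside it had folds of 3.67 to 7.33 and pileups of 7 to 15 fragments, and their median fold was 4.58, against 11.8 for those inside. From the side of the mark, 10 of the 15 H3K4me3 peaks (66.7%) held ETV5, against 84.2% of all H3K4me3 peaks. The 5 without it had H3K4me3 folds of 3.45 to 6.27, and the 10 with it of 10.9 to 67.3. These ranges did not overlap among the 15 peaks, but over the whole list peaks with and without ETV5 did overlap in fold. Of the 1278 H3K4me3 peaks with a fold within 20% of 6.27, 57.7% held ETV5 and the rest did not.

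Genes of the surrounding pathway were described with the same windows. Nearly all of them carried H3K4me3 (61 of 62), and of all protein-coding genes with the mark 96.2% had ETV5 and 77.0% had it with fold 10 or more, so that the counts with ETV5 below lie near that background. All 21 genes from adaptors to the RAS, RAF, MEK and ERK proteins had ETV5, 19 of them with fold 10 or more, and the highest were Nras (67.3), Rps6ka3 (67.3), which encodes a kinase activated by ERK, and the FGF receptor adaptor Frs2 (66.1). Each of these 3 peaks had its summit within 100 bp of a boundary of its own gene. Of 12 receptor genes 11 had ETV5 and 9 had fold 10 or more. Kit, whose product binds Spred proteins, had neither ETV5 nor H3K4me3. Of the receptors with the highest folds, Erbb2 (43.2) and Erbb3 (36.0) had that peak in the neighbouring genes Pgap3 and Zc3h10, whereas the peak of Fgfr3 (22.5) lay in Fgfr3 itself.

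All 12 partners of Sprouty and Spred proteins had ETV5, 10 of them with fold 10 or more. Nf1, the partner of Spred proteins, was the highest with 67.9 at its own boundary, followed by Rhoa with 57.9, whose peak lay in Usp4, and by the ubiquitin ligase gene Siah2 with 38.8. All 14 other inhibitors of ERK signalling had ETV5, and 12 had fold 10 or more. The highest were Lztr1 (39.6, in the neighbouring gene Thap7) and the phosphatase genes Dusp1 (35.0) and Dusp6 (34.2). Of the PEA3 factors Etv5 had 21.8, Etv4 17.1 and Etv1 4.90. List medians of the highest fold were 22.1 for the cascade, 17.2 for receptors, 20.04 for partners, 18.4 for other inhibitors and 17.1 for PEA3 factors, beside 34.8 for Sprouty and Spred genes and 16.9 over all genes with a peak. None of these 62 genes reached the fold of Spred1. The lists were chosen with earlier results of these data known, and no test was made between them.

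**Figure D5:**
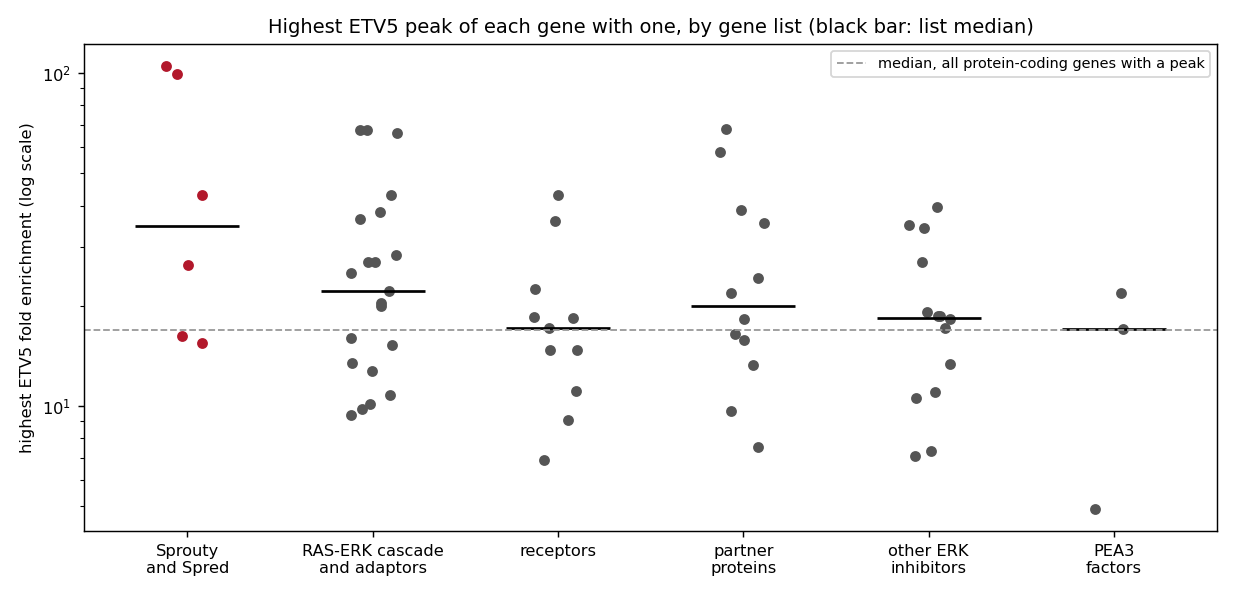
Highest ETV5 fold enrichment (vertical axis, log scale) of each gene with an ETV5 peak in the gene body or within 20 kb, by gene list (horizontal axis), with the list median as a black bar and the median of all protein-coding genes, 16.9, as a dashed line. Spred1 and Spred2 lie above every gene of the other lists, of which Nf1 with 67.9 is the highest.

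Genes whose peaks most resembled those of the 3 members of highest fold were looked for over both libraries, by the distance in log2 highest ETV5 fold, log2 highest H3K4me3 fold and log2 width of both peaks. For Spred2 the nearest were Fchsd2 (distance 0.224, ETV5 fold 98.5) and Tcp11l2 (0.234, fold 114.7). For Spred1 they were Aptx and Dnaja1 (0.261, fold 88.7), which have the same folds and peak widths in both lists and so do not count as separate matches. For Spry2 they were Nemf (0.381, fold 43.7) and Snx25 (0.454, fold 48.7). The measure rests on 4 values of 1 library per antibody and takes no account of where the peaks lie. For Spred2 it joins the ETV5 peak upstream of the start with the H3K4me3 peak over the start. The layout of its peaks was therefore not matched.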

How the data were processed

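Chromatin immunoprecipitation with sequencing gave 1 library for ETV5 and 1 for H3K4me3 from mouse AT2 cells, grouped by the antibody in the labels. Per the labels' protocol, cells were fixed with 1% formaldehyde for 11 min and DNA was sheared to 300 to 500 bp. MACS2 2.1.0.20150420, named in the submitters' processing notes and the file headers, called peaks per library at a q-value of 0.05 with 1 tag kept per position. The sources used here name no aligner. The ETV5 list used, per the file headers, 27495486 input tags and 203-bp fragments, the H3K4me3 list with 44758677 input tags and 288-bp fragments, from inputs of different names. The deposited pileup signal holds whole fragments, and per the file headers the larger dataset, here the input, was scaled to the smaller. Each peak's fold ratio, −log10 p-value and −log10 q-value are as the authors deposited them, and local background was computed back from fold and pileup. Peak width and summit, the other values used, are from the deposited lists too.

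The labels name mm9, but 66.0% of H3K4me3 summits fell less than 1 kb from a protein-coding boundary in the RefSeq GRCm38.p6 table, and the scaffold names in the files are those of GRCm38, so positions are given as GRCm38. Gene positions came from that table, and starts and strands from its promoter table, which matched 5 of the 7 members. Genes listed below 3 Mb on chromosomes other than Y were taken to carry positions of scaffolds, and 120 protein-coding genes, these and others off assembled chromosomes, were left out. Spry3 was kept. Distances are from starts, or from boundaries where no start was given. The planned comparison of proteins was not run, since no protein sequences were used here.

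Members and lists were chosen with earlier results of these data known. Named were all members with their peaks, the 3 genes of highest fold and those without ETV5 in each pathway list, neighbours holding a described peak, and the 2 most alike genes of 3 members. Overlap needed 1 bp. Alternatives were windows of 5 and 100 kb, nearest peaks only, −log10 q or fold of at least 10, any base in the window, 50% overlap and, added after the data were seen, Spry3 read on X. Python 3.11.15, numpy 2.4.6, pandas 2.3.3, scipy 1.17.1 and matplotlib 3.10.9 were used, and the counting steps were tested on simulated data.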

Additional observations from a re-analysis of the deposited data

How the results depend on the processing

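Of 59 values recomputed under 8 alternatives, 52 were unchanged or, for counts, within 1.5 times of the value reported. The highest ETV5 fold of Spred3 was 11.2 with a window of 5 kb and also 11.2 with only the peaks nearest to the gene, in place of 16.2, because the higher peak lies in Psmd8. With a window of 100 kb the ETV5 peaks numbered 57 and the H3K4me3 peaks 30, and the highest ETV5 fold of Spry1 was 48.2. With −log10 q of at least 10 there were 16 ETV5 peaks, and with fold of at least 10 there were 14, in place of 28. Members with ETV5 numbered 6 under every alternative except that of nearest peaks, which gave 5, since the only peak at Spry4 is nearer to Arhgap26 and leaves Spry4 without a value. Members with H3K4me3 numbered 6 with fold of at least 10 and 6 with Spry3 read on X, the alternative chosen after seeing the data, and 7 otherwise. No paired analysis was possible because each antibody has 1 library and no value comes from a test. The depth of the ETV5 library limits the weak peaks: of the 28 ETV5 peaks those of 6 to 10 fragments have counting intervals that reach below 5, the lowest pileup called.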

Other observations

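Beyond 20 kb the neighbourhood of Spry1 held an ETV5 peak stronger than any in its window. It lay 42839 bp beyond the far end of Spry1 (chromosome 3, 37687002 to 37687801), with a pileup of 96 fragments (interval 77.8 to 117) and fold 48.2, outside H3K4me3, and the nearest protein-coding gene was Gm5148 at 26752 bp. It was the highest of 10 ETV5 peaks between 20 and 100 kb of Spry1, of which 2 overlapped H3K4me3. The others had folds of 3.56 to 9.77.

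Spry2 was the nearest protein-coding gene to each of the 3 ETV5 peaks between 20 and 100 kb of it, with folds of 4.90 to 9.01, and none overlapped H3K4me3. The 2 H3K4me3 peaks in the same range had folds of 3.06 and 7.37. Spry4 had 4 ETV5 peaks in that range, all nearest to Ndfip1 or inside Arhgap26. The only such peak of Spred1 lay in Fam98b (fold 10.5) and the only such peak of Spred2 at Actr2 (fold 42.7), each overlapping an H3K4me3 peak. Between the 20 kb limit and the nearest peak beyond it lay wide gaps: the outermost ETV5 summit inside the limit was 11489 bp from its gene (Spred2, fold 5.55), and the nearest outside it was 30530 bp away (Spry4, fold 8.02). These distances were looked at after the data were seen.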
